A study of Danio rerio with 6 samples.

Results

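Transcripts of 60 genes that act in mitosis were followed in zebrafish embryos carrying a *dhx38* mutation. The genes were taken by symbol from the larger deposited table of 21769 genes, which held 58 of them. *birc5b*, a survivin paralog, and *incenp*, the scaffold of the chromosomal passenger complex, were not matched by symbol and were not analysed here. RNA came from 3 libraries labelled dhx38-- or dhx38-/- and 3 libraries of siblings labelled WT, all from AB strain embryos collected 36 hours after fertilization. The labels call the material tail tissue, and trunk in the extraction protocol, and they name neither the allele nor the number of embryos pooled. *dhx38* encodes a DEAH-box helicase of pre-mRNA splicing. All values are the authors' normalized CPM (counts scaled to library size, with scaling factors unknown here). Values of 3 libraries are given for replicates 1, 2 and 3 in that order.

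A cell enters mitosis when cyclin B and the kinase CDK1 form an active complex, a step opened by CDC25 phosphatases and reinforced by the Polo and Aurora kinases. Condensin and topoisomerase II then compact and disentangle the chromosomes, and kinetochores built on the centromeres attach them to spindle microtubules that kinesins move and sort. The spindle checkpoint holds back the anaphase-promoting complex until every kinetochore is attached. The complex then marks cyclin B and securin for destruction, the sister chromatids part, and the cell divides by cytokinesis. Many of these transcripts are made mainly in late S, G2 and M phase, so in whole tissue their level also follows how many cells divide. In such bulk RNA, fewer dividing cells and less RNA per cell cannot be told apart.

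Estimated depth was 19500000 to 37700000 reads per library, and replicate 3 was the shallowest of each group. *dhx38* itself stood at 57.2, 90.4 and 53.1 normalized CPM in the mutants, against 33.8, 33.8 and 27.3 in the siblings, and the level of its transcript does not check the genotype. On the first principal component of all genes with a mean of at least 1, mutant replicate 1 scored -1.81, the other two mutant libraries 42.7 and 39.1, and the siblings -33.8, -27.8 and -18.3. Mutant replicate 1 lay between the groups. Libraries with the same replicate number deviated together, so the fit with the number as a block is given beside the fit without it. Head, lens and retina markers were measured in all libraries beside those of tail and trunk. The summed level of 6 head markers was 128 to 162 normalized CPM in the mutants, against 153 to 190.1 in the siblings, that of 8 lens and retina markers 289.7 to 896 normalized CPM in the mutants, against 731 to 1073 in the siblings, and that of 10 markers of posterior trunk and tail 49.2 to 105 normalized CPM in the mutants, against 55.2 to 102 in the siblings.

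Among the 58 mitosis genes, 42 had a negative log2 fold change (72.4%, against 50.8% of all genes) and 16 a positive one. Fold changes are mutant against sibling, on log2(normalized CPM + 1). The median was -0.15, against -0.01 over all genes tested. The median of the 58 was -0.088 without sibling replicate 3 and -0.098 without mutant replicate 1. None passed the threshold of an adjusted p of 0.05 without the block (limma, Benjamini-Hochberg over all genes), in a comparison that called 0.285% of all genes lower and 1.41% higher. The smallest adjusted p among them was 0.0823, for *ube2c*. At an unadjusted p under 0.05, 15 were lower (25.9% of the 58, against 10.7% of all genes) and 1 was higher (1.72%, against 10.2% of all genes). With the replicate block 6 fell (10.3%, against 6.87% of all genes) and 1 rose (1.72%, against 6.85% of all genes), so the share that fell stood near that of all genes. The 6 were *top2a*, *mki67*, *smc4*, *ube2c*, *bub1ba* and *ttk*, and the 1 that rose was *cdc25d*. With a variance trend and the block 12 fell (20.7%, against 8.6% of all genes) and 1 rose (1.72%, against 8.85% of all genes). The 12 were these 6 with *cdk1*, *bub1*, *bub3*, *mad1l1*, *spc24* and *ncapd2*. None of the 58 passed with a pseudocount of 0.1 and the block, where 0.0597% of all genes were called lower and 0.717% higher. Leaving out a pair changed the calls made with the block. Without pair 1, which holds mutant replicate 1, 7 were lower and 2 higher (10% and 9.07% of all genes). Without pair 2 none passed (0.354% of all genes lower and 1.46% higher), nor did any without pair 3 (2.37% and 3.95%).

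In 18 of the 58 genes all mutant libraries lay below all sibling libraries (31%, against 13.8% of all genes), and in 3 they all lay above (5.17%, against 13.3% of all genes). The other 37 overlapped. Within same-number pairs, 32 genes were lower in the mutant of each pair (55.2%, against 27% of all genes) and 10 were higher in each (17.2%, against 25.6%). The median difference was -0.16, -0.16 and -0.10 in pairs 1, 2 and 3. Set against the sibling mean, the median of the 58 genes was -0.22, -0.15 and -0.01 in mutant replicates 1, 2 and 3 and -0.08, 0.03 and 0.05 in sibling replicates 1, 2 and 3. Mutant replicate 3 thus lay above sibling replicate 1, and replicate 1 was the lowest of its group in both. The shorter deposited table of 956 genes, whose criterion is not given in the sources used here, listed 0 of the 58 (4.39% of all genes).

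**Figure D1:**
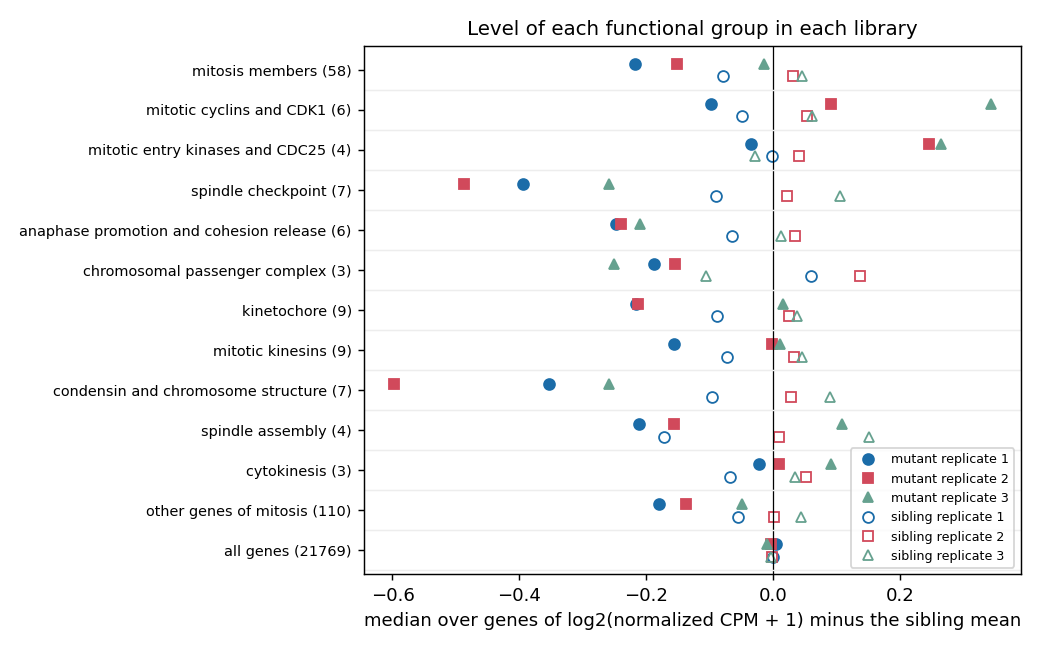
Median level of each functional group of mitosis genes in each library, as log2(normalized CPM + 1) minus the sibling mean of each gene, with the number of genes in brackets. Filled symbols are mutant libraries, open symbols sibling libraries, and shape and colour give the replicate number. Spindle checkpoint genes lay at -0.39, -0.49 and -0.26 in the mutants and condensin and chromosome structure genes at -0.35, -0.60 and -0.26, below all siblings. Mutants also lay below all siblings for anaphase promotion and cohesion release (-0.25, -0.24 and -0.21) and the chromosomal passenger complex (-0.19, -0.15 and -0.25). The 3 cytokinesis genes lay at -0.02, 0.01 and 0.09.

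Among the cyclins and their kinase, *cdk1* was lower and the B-type cyclin genes *ccnb1* and *ccnb2* were higher in the mutant of every pair. None of the 6 passed with or without the block by limma. At an unadjusted p under 0.05 without the block, 1 of the 6, *cdk1*, was lower (16.7%, against 10.7% of all genes). Among the alternatives *cdk1* fell with a variance trend and the block and *ccnb2* rose in the blocked fit without pair 1, with limma adjusted p of 0.0155 and 0.0354. Over the alternatives run the adjusted p ran from 0.0155 to 0.403 for *cdk1* and from 0.0354 to 0.542 for *ccnb2*. *cdk1* (ENSDARG00000087554, chromosome 17), the kinase that drives entry into mitosis, was at 78.4, 68 and 78.1 normalized CPM in the mutants, against 103, 112 and 98.1 in the siblings, with no overlap between the groups. The log2 fold change was -0.48 (SE 0.14, limma adjusted p = 0.113, and 0.0521 with the replicate block). *ccnb1* (ENSDARG00000051923, chromosome 5), the main cyclin B partner of that kinase, was at 129.7, 159 and 181 normalized CPM in the mutants, against 117, 129 and 133 in the siblings. It was higher in the mutant of every pair, but mutant replicate 1 lay within the sibling range (log2 fold change 0.30, SE 0.16, limma adjusted p = 0.338, and 0.160 with the replicate block). *ccnb2*, a second B-type cyclin, was at 14.5, 19.5 and 22 normalized CPM in the mutants, against 14, 14.5 and 12.7 in the siblings, again higher in every pair (log2 fold change 0.40, SE 0.18, limma adjusted p = 0.243, and 0.123 with the replicate block). *ccnf*, the F-box cyclin of a ubiquitin ligase, was at 70.8, 84.7 and 84.9 normalized CPM in the mutants, against 60.7, 61.1 and 70.5 in the siblings, and its groups did not overlap (log2 fold change 0.31, SE 0.15, limma adjusted p = 0.263, and 0.137 with the replicate block). *ccna2*, the cyclin A of S and G2 phase, and *ccnb3* had log2 fold changes of -0.23 and -0.04 with overlapping groups.

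Within each library *cdk1* could be set against its partners, which removes the scaling of the library. Relative to *ccnb1* and taken against the sibling mean, *cdk1* stood at -0.45, -0.94 and -0.93 on the log2 scale in the mutants, against 0.10, 0.07 and -0.16 in the siblings. Relative to *ccnb2* it stood at -0.48, -1.09 and -1.06 in the mutants and -0.04, 0.02 and 0.02 in the siblings. Neither set overlapped, and mutant replicate 1 was the nearest to the siblings in both. Relative to *ccna2* the groups overlapped, at -0.02, -0.32 and -0.39 in the mutants and 0.13, 0.03 and -0.16 in the siblings. Differences within pairs of genes were chosen after the values were seen and are given without a test.

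The group of mitotic entry kinases and CDC25 genes, which leaves out *cdk1*, did not stand lower: of 4, 3 had a positive log2 fold change and the median was 0.14. *cdc25d* (ENSDARG00000075599, chromosome 1), a CDC25-type phosphatase gene, was at 2.22, 3.88 and 2.13 normalized CPM in the mutants, against 1.53, 1.78 and 0.88 in the siblings. All mutant values lay above all sibling values at this low level, and the gene rose with the block but did not pass without it (log2 fold change 0.63, SE 0.22, limma adjusted p = 0.167, and 0.0246 with the replicate block). *plk1* (ENSDARG00000058471, chromosome 1), the Polo kinase of spindle and centrosome maturation, was at 136, 149.8 and 171 normalized CPM in the mutants, against 142, 159 and 169 in the siblings, so that the groups overlapped and replicate 1 was the lowest in both. Its log2 fold change was -0.04, with a 95% interval of -0.39 to 0.30 without the block and -0.33 to 0.24 with it. *aurka*, the Aurora kinase of the centrosome, was at 66.5, 71.8 and 60.8 normalized CPM in the mutants, against 62.1, 63.2 and 57 in the siblings (log2 fold change 0.12, SE 0.14, limma adjusted p = 0.653, and 0.543 with the replicate block). *cdc25b*, a phosphatase that activates CDK1, was lower in pair 1 and higher in pairs 2 and 3 (log2 fold change 0.15).

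All 7 spindle checkpoint genes were lower in the mutant of every pair, with log2 fold changes from -0.49 to -0.14 and a median of -0.42. In 5 of the 7 all mutants lay below all siblings (71.4%, against 13.8% of all genes), and 2 fell with the block (28.6%, against 6.87% of all genes). *bub1ba* (ENSDARG00000078825, chromosome 20), a BubR1-type gene of the complex that inhibits the anaphase-promoting complex, was at 15.6, 14 and 14.7 normalized CPM in the mutants, against 19.9, 22.2 and 21.3 in the siblings. It fell with the block only (log2 fold change -0.49, SE 0.13, limma adjusted p = 0.0963, and 0.0421 with the replicate block). *ttk* (ENSDARG00000041361, chromosome 16), the Mps1 kinase that starts the checkpoint signal, was at 45, 44.1 and 56.2 normalized CPM in the mutants, against 58.5, 68.5 and 76.6 in the siblings, with all mutants below all siblings. It too fell with the block only (log2 fold change -0.48, SE 0.16, limma adjusted p = 0.158, and 0.0437 with the replicate block). *bub1*, the kinase that docks checkpoint proteins at kinetochores, was at 95.4, 87.8 and 87.9 normalized CPM in the mutants, against 116, 124 and 131 in the siblings (log2 fold change -0.45, SE 0.13, limma adjusted p = 0.117, and 0.0555 with the replicate block). *bub3*, the partner of Bub1 and BubR1, was at 118, 104 and 95.6 normalized CPM in the mutants, against 145, 142 and 123 in the siblings, and *mad1l1*, which tethers Mad2 to kinetochores, at 19, 16.5 and 22.7 normalized CPM in the mutants, against 24.8, 25.3 and 28.5 in the siblings. Neither gene's groups overlapped, with adjusted p of 0.0859 and 0.0642 by limma with the block. *mad2l1*, the Mad2 inhibitor itself, and *bub1bb* had log2 fold changes of -0.14 and -0.20, and their groups overlapped.

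Among 6 genes of anaphase promotion and cohesion release, all had a negative log2 fold change, with a median of -0.19. *ube2c* (ENSDARG00000114670, chromosome 6), the ubiquitin-conjugating enzyme of the anaphase-promoting complex, was at 49.4, 43.5 and 48.2 normalized CPM in the mutants, against 65.9, 69.2 and 70.1 in the siblings, and each group spanned a narrow range. It fell with the block only (log2 fold change -0.53, SE 0.13, limma adjusted p = 0.0823, and 0.0311 with the replicate block). A second row of the same symbol on the same chromosome (ENSDARG00000101618) was at 11.4, 11.3 and 15.3 normalized CPM in the mutants, against 11.2, 10.4 and 9.66 in the siblings. It went the other way and did not pass (log2 fold change 0.25, SE 0.16, limma adjusted p = 0.417, and 0.302 with the replicate block). The share of reads that each copy received is unknown and was not tested. *fbxo5*, the Emi1 inhibitor of the anaphase-promoting complex, was at 38, 33.8 and 37.4 normalized CPM in the mutants, against 44.6, 46.2 and 44.8 in the siblings, without overlap (log2 fold change -0.31, SE 0.13, limma adjusted p = 0.226, and 0.145 with the replicate block). *cdc20*, the activator that the checkpoint blocks, was at 74, 82.1 and 92.6 normalized CPM in the mutants, against 83.7, 90.8 and 91 in the siblings, and *espl1*, the separase that cuts cohesin, at 72.8, 70.5 and 63.1 normalized CPM in the mutants, against 66.3, 76.6 and 69 in the siblings. Both overlapped between groups, with 95% intervals of the log2 fold change of -0.42 to 0.23 for *cdc20* and -0.35 to 0.28 for *espl1*. The securin gene *pttg1* and the shugoshin gene *sgo1*, which guard cohesin, were lower in each pair at -0.23 and -0.15 and overlapped between groups.

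**Figure D2:**
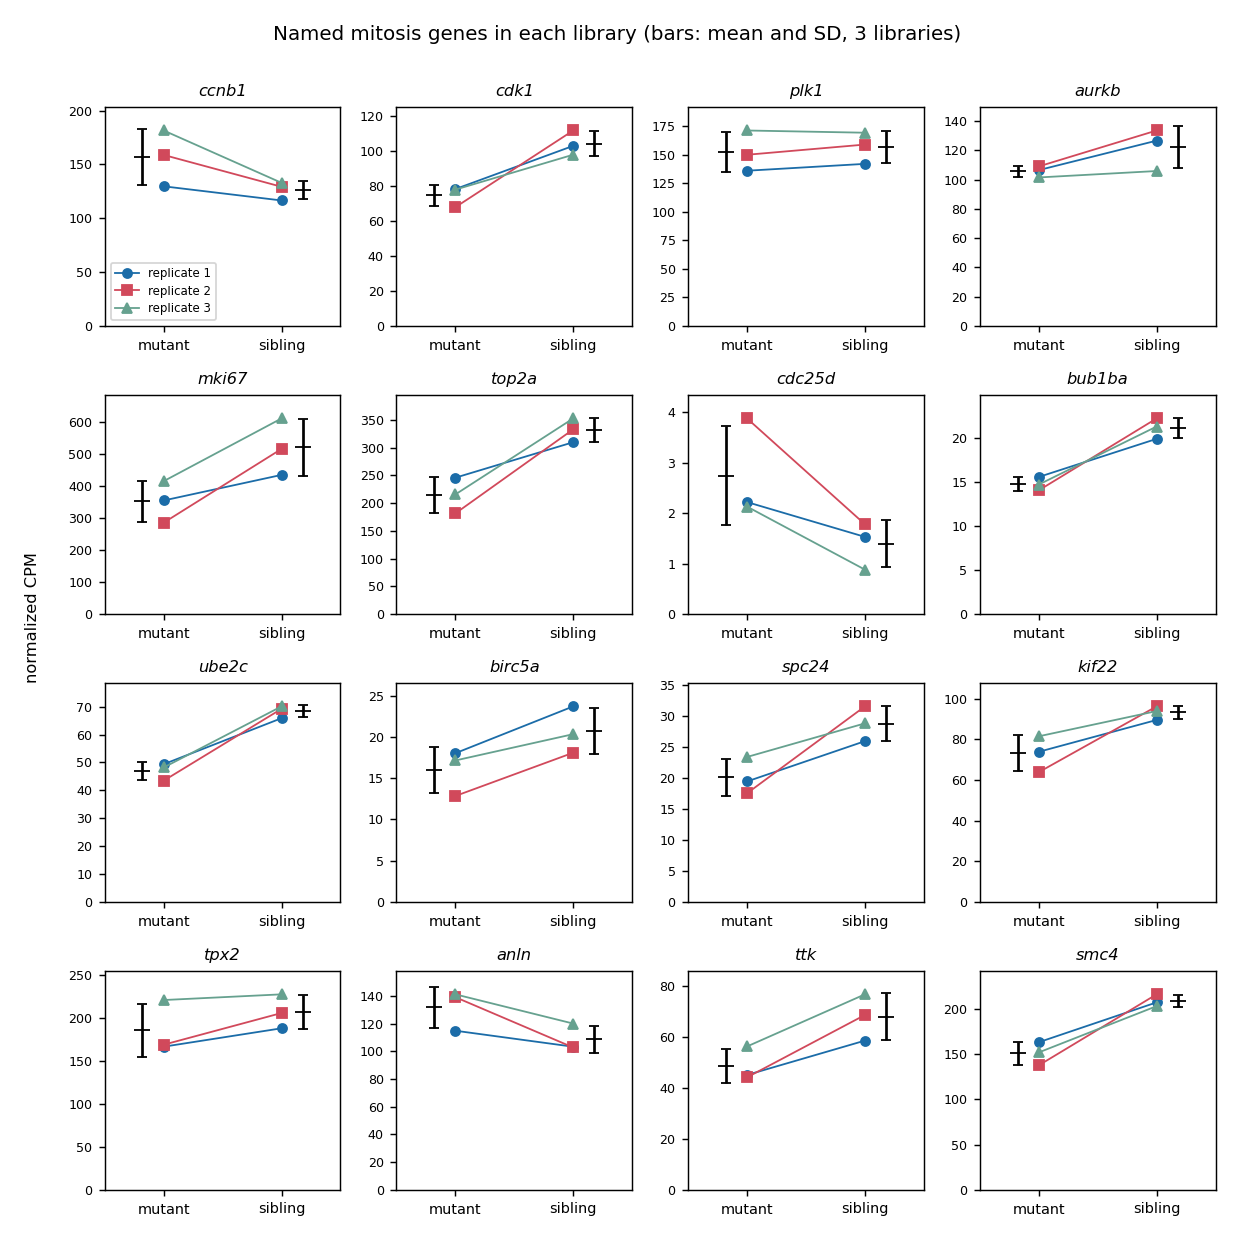
Normalized CPM of 16 mitosis genes in each library, mutant on the left and sibling on the right, with lines joining libraries of the same replicate number and bars giving the mean and SD of 3 libraries. *top2a* stands at 246, 181 and 216 in the mutants, below 310.0, 333 and 353 in the siblings, while the lines of *plk1* are close to level.

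Of 7 genes of condensin and chromosome structure, 6 were lower in the mutant of every pair and the median log2 fold change was -0.43. *top2a* (ENSDARG00000024488, chromosome 12), the topoisomerase that untangles sister chromatids, was at 246, 181 and 216 normalized CPM in the mutants, against 310.0, 333 and 353 in the siblings, the most negative of the 58. The log2 fold change was -0.64 (SE 0.16, limma adjusted p = 0.0824, and 0.0258 with the replicate block). It fell with the block, and it was the 1 of the 58 that passed without the block when mutant replicate 1 was left out (limma adjusted p = 0.0372, in a fit that called 3.97% of all genes lower and 3.98% higher). Over the alternatives run its adjusted p ran from 0.00549 to 0.284. *mki67* (ENSDARG00000091150, chromosome 12), the Ki-67 protein that coats mitotic chromosomes and marks cycling cells, was at 354, 285 and 415 normalized CPM in the mutants, against 434, 515 and 611 in the siblings. In both groups replicate 3 was the highest, and the groups did not overlap (log2 fold change -0.57, SE 0.19, limma adjusted p = 0.153, and 0.0373 with the replicate block). Of the condensin genes, the SMC subunit gene *smc4* (ENSDARG00000038882, chromosome 15) was at 163, 137 and 152 normalized CPM in the mutants, against 207, 216 and 203 in the siblings. It fell with the block (log2 fold change -0.47, SE 0.13, limma adjusted p = 0.111, and 0.0490 with the replicate block). *ncapd2*, a HEAT-repeat subunit, was at 137, 118 and 152 normalized CPM in the mutants, against 170.2, 187 and 191 in the siblings, and *ncapg*, another, at 93.4, 89.4 and 102 normalized CPM in the mutants, against 109, 118 and 117 in the siblings. Both were without overlap between groups and did not pass (limma adjusted p with the block of 0.0665 and 0.186). *ncaph*, the kleisin subunit that closes the condensin I ring, was at 64.8, 78.5 and 91.5 normalized CPM in the mutants, against 62.5, 64.1 and 73.8 in the siblings, higher in every pair (log2 fold change 0.22, SE 0.17, limma adjusted p = 0.505, and 0.298 with the replicate block).

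Relative to *ncaph* within each library, and against the sibling mean, *smc4* stood at -0.31, -0.83 and -0.91 on the log2 scale in the mutants and 0.08, 0.10 and -0.19 in the siblings. *ncapd2* relative to *ncaph* stood at -0.38, -0.86 and -0.71 in the mutants and -0.01, 0.09 and -0.08 in the siblings. *ncapg* and *smc2* relative to *ncaph* likewise did not overlap between groups, with mutant minus sibling differences of -0.49 and -0.37. The positive log2 fold change of *ncaph* itself (0.22) enters each of these differences. *smc2* on its own was at 146, 149 and 177 normalized CPM in the mutants, against 157, 178 and 191 in the siblings. Its groups overlapped (log2 fold change -0.16, SE 0.15, limma adjusted p = 0.603, and 0.442 with the replicate block).

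Kinetochore genes were mixed, with 6 of 9 negative and a median log2 fold change of -0.15. *spc24* (ENSDARG00000093622, chromosome 3), of the Ndc80 complex that binds microtubules, was at 19.4, 17.5 and 23.4 normalized CPM in the mutants, against 25.9, 31.6 and 28.8 in the siblings, without overlap (log2 fold change -0.50, SE 0.16, limma adjusted p = 0.135, and 0.0539 with the replicate block). The other 3 subunits of that complex overlapped between groups. *ndc80* was at 67.5, 79.4 and 86.2 normalized CPM in the mutants, against 70.9, 78.2 and 77.5 in the siblings, *nuf2* at 32.8, 37 and 46.9 normalized CPM in the mutants, against 36.6, 40.9 and 44.3 in the siblings and *spc25* at 22.2, 24.6 and 25.7 normalized CPM in the mutants, against 22.9, 23.7 and 23.2 in the siblings. Relative to *ndc80* within each library, and against the sibling mean, *spc24* stood at -0.38, -0.75 and -0.47 in the mutants and -0.05, 0.08 and -0.03 in the siblings, and *spc25* at 0.10, 0.01 and -0.05 in the mutants and 0.07, -0.03 and -0.04 in the siblings. *ska1*, of the Ska complex that couples kinetochores to microtubule ends, was at 7.30, 5.61 and 9.12 normalized CPM in the mutants, against 11, 9.19 and 9.81 in the siblings, without overlap (log2 fold change -0.42, SE 0.18, limma adjusted p = 0.240, and 0.0910 with the replicate block). *cenpe*, a kinetochore motor, *cenpf*, *knl1*, the scaffold for checkpoint proteins, and *knstrn* had log2 fold changes from -0.25 for *cenpe* to 0.08 for *knl1*, and their groups overlapped.

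**Figure D3:**
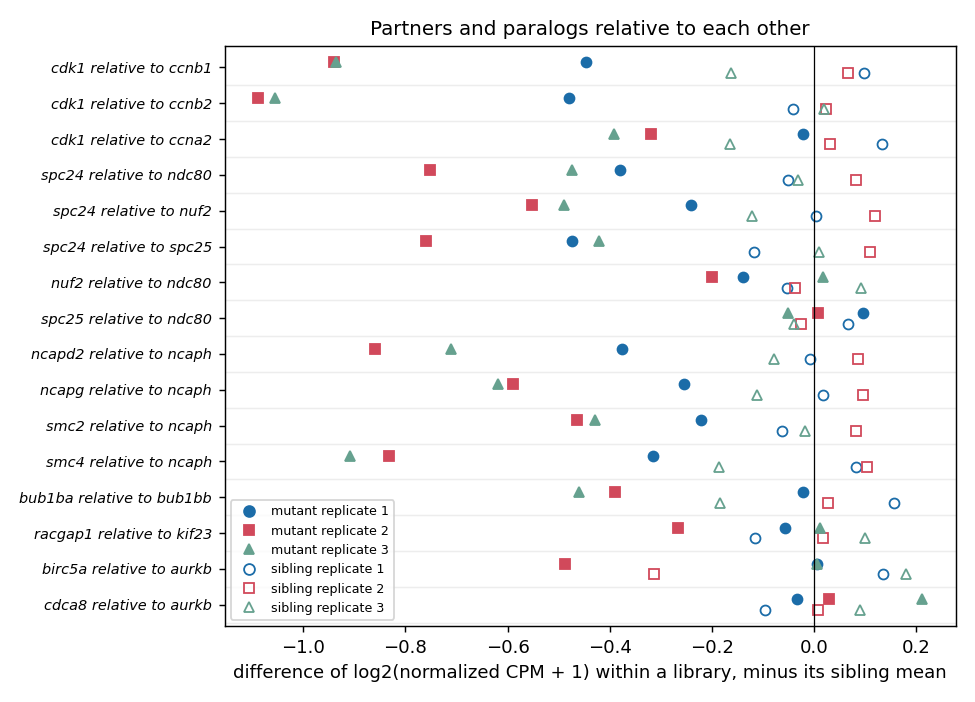
Differences of log2(normalized CPM + 1) between 2 genes within each library, minus the mean of that difference in siblings, for partners in a complex and paralogs. Filled symbols are mutants and open symbols siblings. Of 16 differences, 9 lie below the siblings in all mutant libraries. These are *spc24* relative to *ndc80*, *nuf2* or *spc25*, *cdk1* relative to *ccnb1* or *ccnb2*, and 4 condensin genes relative to *ncaph*. The others overlap: *cdk1* relative to *ccna2*, *nuf2* and *spc25* to *ndc80*, *bub1ba* to *bub1bb*, *racgap1* to *kif23*, and *birc5a* and *cdca8* to *aurkb*. The 4 condensin differences share the values of *ncaph*, those of *spc24* share its values and those of *cdk1* share its values. The 9 are therefore not separate observations, and the share over other pairs of genes was not measured.

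The chromosomal passenger complex corrects faulty attachments and later directs cytokinesis, and its 3 measured genes had a median log2 fold change of -0.20. *aurkb* (ENSDARG00000037640, chromosome 14), its kinase, was at 106, 109 and 101 normalized CPM in the mutants, against 127, 134 and 106 in the siblings, and sibling replicate 3 lay within the mutant range (log2 fold change -0.20, SE 0.14, limma adjusted p = 0.471, and 0.330 with the replicate block). *birc5a* (ENSDARG00000075621, chromosome 12), a survivin gene, was at 18, 12.8 and 17.2 normalized CPM in the mutants, against 23.7, 18.1 and 20.4 in the siblings, with mutant replicate 2 the lowest and the groups just apart (log2 fold change -0.36, SE 0.18, limma adjusted p = 0.291, and 0.0974 with the replicate block). *cdca8*, the borealin subunit, had a log2 fold change of -0.13, lower in pairs 1 and 2 and higher in pair 3.

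The 9 mitotic kinesin genes had a median log2 fold change of -0.03, and 0 passed with or without the block by limma. At an unadjusted p under 0.05 without the block, 2 were lower (22.2%, against 10.7% of all genes). *kif22* (ENSDARG00000102624, chromosome 12), a chromosome arm motor, was at 73.8, 63.8 and 81.4 normalized CPM in the mutants, against 89.4, 96.1 and 93.8 in the siblings, without overlap (log2 fold change -0.35, SE 0.14, limma adjusted p = 0.213, and 0.117 with the replicate block). *kif4*, another chromosome motor, was at 104, 98.5 and 105 normalized CPM in the mutants, against 119.9, 129 and 130.2 in the siblings, also without overlap (log2 fold change -0.30, SE 0.13, limma adjusted p = 0.229, and 0.148 with the replicate block). *kif11*, the Eg5 motor that pushes spindle poles apart, was at 177, 197 and 207 normalized CPM in the mutants, against 182, 203 and 209 in the siblings, with a 95% interval of the log2 fold change of -0.35 to 0.29. *kif18a*, which limits microtubule length, had all mutants above all siblings at 34.1, 38.2 and 35.7 normalized CPM in the mutants, against 32.4, 33.3 and 32 in the siblings (log2 fold change 0.14, SE 0.13, limma adjusted p = 0.582, and 0.490 with the replicate block). The remaining 5, *kif20a*, *kif20ba*, *kif23*, *kif2c* and *kifc1*, had log2 fold changes from -0.15 for *kif2c* to 0.12 for *kif23* and overlapped.

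The median log2 fold change was -0.13 over 4 spindle assembly genes and 0.02 over 3 cytokinesis genes, and the groups overlapped in all 7. *tpx2* (ENSDARG00000078654, chromosome 23), the activator of Aurora A on the spindle, was at 166, 169 and 220.5 normalized CPM in the mutants, against 188, 205 and 227 in the siblings (log2 fold change -0.17, SE 0.16, limma adjusted p = 0.611, and 0.418 with the replicate block). *nusap1* (log2 fold change -0.17), *aspm* (-0.10) and *hmmr* (0.08), which organise spindle microtubules, overlapped between groups as well. Of cytokinesis genes, *anln* (ENSDARG00000060917, chromosome 19), the anillin scaffold of the contractile ring, was at 115, 139 and 141 normalized CPM in the mutants, against 103, 103 and 120.1 in the siblings, higher in every pair although mutant replicate 1 lay within the sibling range (log2 fold change 0.27, SE 0.15, limma adjusted p = 0.340, and 0.195 with the replicate block). *ect2*, a gene required for cytokinesis, was at 44.2, 48 and 46.4 normalized CPM in the mutants, against 46, 49.4 and 47.6 in the siblings, and its partner *racgap1* at 54.1, 54.4 and 58.6 normalized CPM in the mutants, against 51.1, 57.9 and 56.3 in the siblings. Their 95% intervals were -0.34 to 0.25 for *ect2* and -0.29 to 0.32 for *racgap1* on the log2 scale. The differences between the functional groups were not tested.

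**Figure D4:**
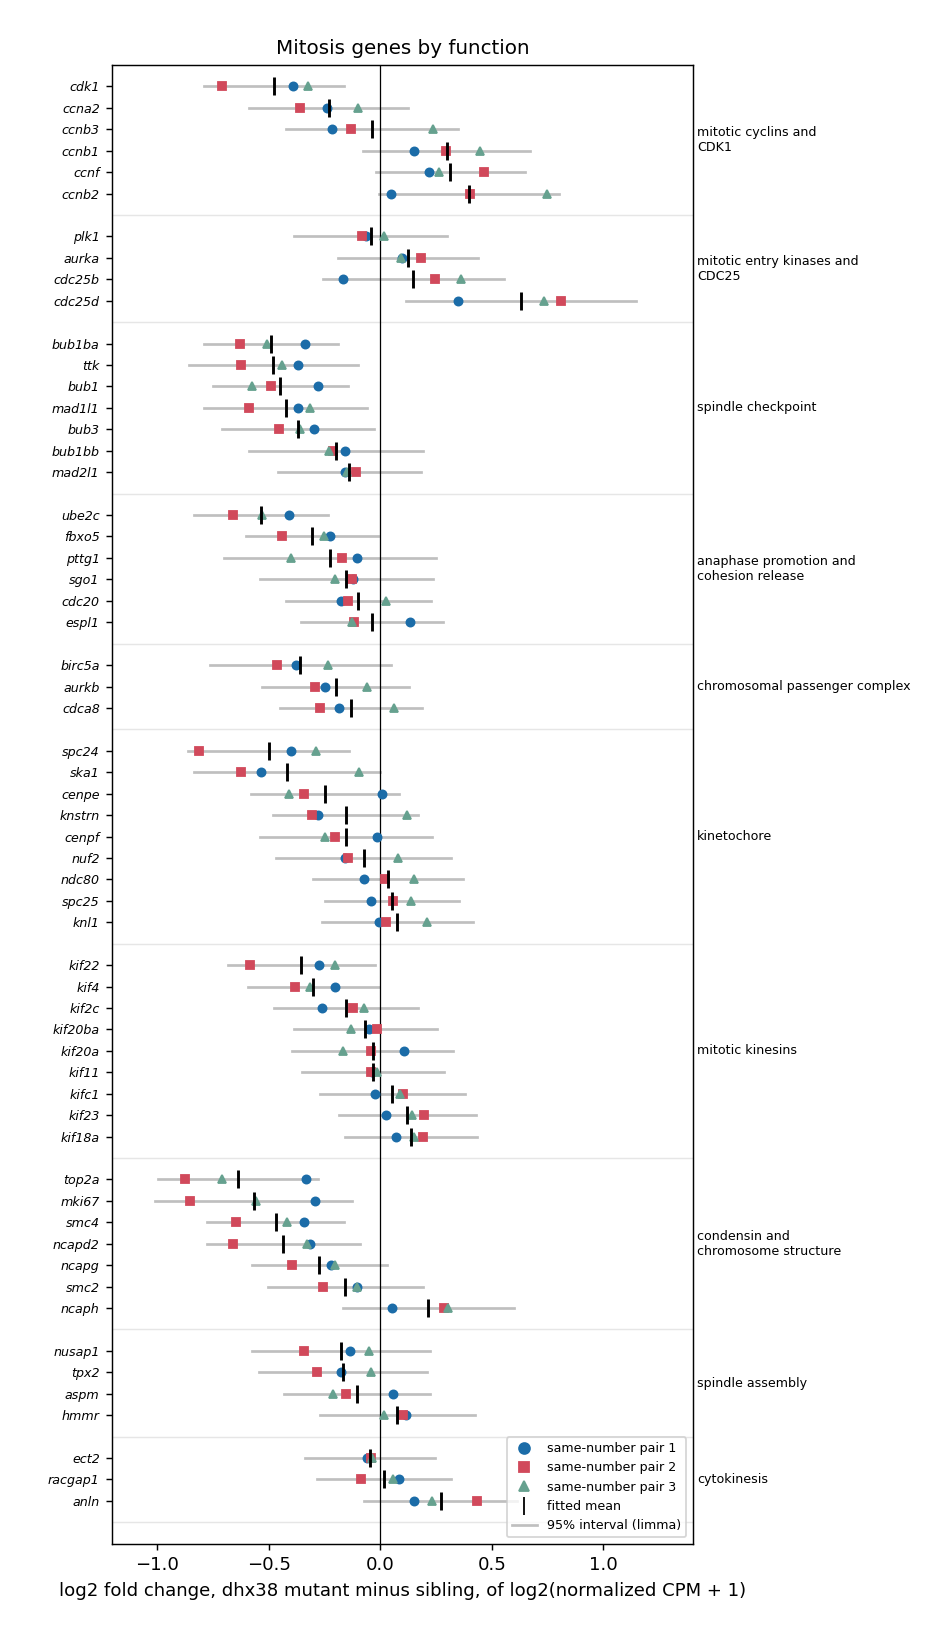
Log2 fold change of the 58 mitosis genes, mutant minus sibling, ordered within functional groups. Coloured symbols give the difference in each same-number pair, black ticks the fitted mean and grey bars its 95% interval without the block. All 7 spindle checkpoint genes lie left of 0 in every pair, and *ncaph*, *ccnb1*, *ccnb2* and *ccnf* lie right of 0 in every pair.

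Other genes of mitosis, outside the 60, gave 110 measured of 124 listed. Of these 74 had a negative log2 fold change (67.3%, against 50.8% of all genes) and the median was -0.13. By limma 0 passed without the block. At an unadjusted p under 0.05 without it, 23 were lower (20.9%, against 10.7% of all genes) and 11 higher (10%, against 10.2%). With the block 16 fell (14.5%, against 6.87% of all genes) and 7 rose (6.36%, against 6.85%), while 87 did not pass. Kinetochore genes outside the 60 held 7 of the 16, out of 22 (31.8%, against 6.87% of all genes). With the block 1 of the 22 rose (4.55%, against 6.85%). *mis12*, a subunit that links the centromere to the Ndc80 complex, was at 16.9, 15.5 and 16.7 normalized CPM in the mutants, against 24.8, 27.8 and 24.3 in the siblings (log2 fold change -0.62, SE 0.13, limma adjusted p = 0.0644, and 0.0217 with the replicate block). *ska3*, the partner of *ska1*, was at 13.8, 11 and 16.4 normalized CPM in the mutants, against 21.4, 25.2 and 26.7 in the siblings and fell with the block (log2 fold change -0.80, SE 0.18, limma adjusted p = 0.0692, and 0.0134 with the replicate block). Of 15 genes of the anaphase-promoting complex 3 fell with the block and 1 rose (20% and 6.67%, against 6.87% and 6.85% of all genes). *cdc26*, a small subunit, was at 13, 12.8 and 13.4 normalized CPM in the mutants, against 21.4, 20.8 and 18.8 in the siblings (log2 fold change -0.60, SE 0.13, limma adjusted p = 0.0657, and 0.0220 with the replicate block).

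Among 25 other mitotic kinases, phosphatases and regulators, 2 fell and 4 rose with the block (8% and 16%, against 6.87% and 6.85% of all genes). By limma 0 passed without it. At an unadjusted p under 0.05 without the block, 5 were lower and 4 higher (20% and 16%, against 10.7% and 10.2% of all genes). *bora*, the activator of Aurora A towards Plk1, was at 24, 28.7 and 23.1 normalized CPM in the mutants, against 14.8, 15.8 and 14.4 in the siblings, with the groups far apart (log2 fold change 0.71, SE 0.14, limma adjusted p = 0.0525, and 0.0121 with the replicate block). *foxm1*, a transcription factor of G2 and M phase genes, was at 48, 58.6 and 76.4 normalized CPM in the mutants, against 36.1, 37.5 and 42 in the siblings and *wee1*, the kinase that restrains CDK1, at 64.8, 88.1 and 94.7 normalized CPM in the mutants, against 53.5, 57.9 and 62.8 in the siblings. Both rose with the block (limma adjusted p = 0.0238 and 0.0471) and did not pass without it (limma adjusted p = 0.121 and 0.172). *esco1*, a cohesin acetyltransferase, was at 25.3, 29.3 and 28.3 normalized CPM in the mutants, against 18.7, 18.4 and 17.3 in the siblings (log2 fold change 0.58, SE 0.13, limma adjusted p = 0.0716, and 0.0250 with the replicate block). Of 19 cohesin genes 1 fell with the block and 1, *esco1*, rose (5.26% each, against 6.87% and 6.85% of all genes). Of 29 other spindle, centrosome and cytokinesis genes 3 fell with the block (10.3%, near the 6.87% of all genes), among them *tubgcp4* of the microtubule-nucleating gamma-tubulin ring, at 22.6, 10.2 and 13.9 normalized CPM in the mutants, against 29.9, 28.6 and 29.8 in the siblings (log2 fold change -0.94, SE 0.25, limma adjusted p = 0.0963, and 0.0171 with the replicate block). *ska3*, *foxm1* and *wee1* were chosen after their values were seen.

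Markers of S phase and of several tissues were measured beside these genes. None of these lists had a gene called without the block by limma. At an unadjusted p under 0.05 without the block, limma put 10.7% of all genes lower and 10.2% higher. With the block, which called 6.87% of all genes lower and 6.85% higher, the calls were as follows, all of them lower. Of 12 S phase genes 11 had a negative log2 fold change (91.7%, against 50.8% of all genes). Of the 12, 3 fell with the block (25%) and 5 were lower at an unadjusted p under 0.05 without it (41.7%). Their summed level was 3039 to 3691 normalized CPM in the mutants, against 4037 to 4334 in the siblings. Of 7 neural progenitor markers 5 fell (71.4%), and also 5 were lower at an unadjusted p under 0.05 without the block (71.4%). Their summed level was 647 to 907 normalized CPM in the mutants, against 1180.5 to 1242 in the siblings. Of 6 skeletal muscle markers 4 fell (66.7%), and 4 were lower at an unadjusted p under 0.05 without the block (66.7%). Their summed level was 20885 to 23947 normalized CPM in the mutants, against 28492 to 32065 in the siblings. Of 8 lens and retina markers 5 fell (62.5%), with 3 lower at an unadjusted p under 0.05 without the block (37.5%). In 7 of the 8 the groups overlapped, *rx1* was positive at 0.37, and mutant replicate 1 had the highest sum of the mutants. Of 6 head markers 1 fell (*foxg1a*), 5 were negative and the median log2 fold change was -0.11. Of 10 markers of posterior trunk and tail 1 fell (*hoxa13b*), 6 were positive and the median was 0.04. In each of these last lists 1 marker was lower at an unadjusted p under 0.05 without the block. That was 16.7% of the head markers and 10% of those of trunk and tail, against 10.7% of all genes. Epidermis markers (0 of 5 called by limma, and 0 at an unadjusted p under 0.05) stood at a summed 25659 to 34194 normalized CPM in the mutants, against 20688 to 27425 in the siblings, and erythroid markers (0 of 5, and 0 unadjusted) at a summed 1329 to 2795 normalized CPM in the mutants, against 1946 to 5271 in the siblings. All 5 epidermis markers had a positive log2 fold change, with a median of 0.23, where 50.8% of all genes had a negative one. Among the erythroid markers 3 had a negative log2 fold change and 2 a positive one. All 5 were lower in the mutant of pairs 1 and 2, but 0 were in pair 3, where the median difference was 0.61. No marker of these lists was at 0 in any library. The part of these tissues in the levels of mitosis genes was not tested.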

How the data were processed

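RNA-seq of 3 mutant and 3 sibling libraries was used as deposited. The values are a signal scaled by the authors to library size, which their headers call normalized CPM, kept to 2 decimals in the deposited tables. Per the submitters' processing notes the tools were fastp, STAR, featureCounts and edgeR, with GRCz11 as the build. The scaling factors and the filter on genes are unknown from the sources used here. So is the use of strand, and reads from genes that overlap on either strand may be shared between them. Depth was estimated as the column total divided by the value of 1 read, found from the low values. Whole reads could not be recovered firmly in 4 of 6 libraries from values rounded this way, so no count test was run.

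The test was limma 3.58.1 (R 4.3.3) on log2(value + 1) of all 21769 genes, without a filter and without a block, mutant against sibling, with Benjamini-Hochberg adjustment and a threshold of 0.05. This scale understates the change of low genes. A symbol with several rows kept the row of highest mean. All 58 gene IDs were in the Ensembl name table. Of these, 56 carried the same symbol there apart from case.

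Groups and replicate numbers come from the sample titles. No label ties a library to its own clutch or pool of embryos. The p-values therefore measure the spread between these libraries, which may be technical. Deviations from the group means correlated between same-number libraries, with r of 0.46, 0.45 and 0.59 for numbers 1, 2 and 3 over 18506 genes, so the numbers were taken to pair the libraries. What libraries of 1 number share is unknown from the labels.

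The members and lists were chosen with earlier results of these data known. Genes named with all values were *ccnb1*, *cdk1*, *plk1*, *aurkb*, *mki67* and *top2a*, the smallest p of each functional group, members called with or without the block, and the largest change in each direction. Further members are given so that each of the 58 is accounted for. Of each other list the gene with the smallest p is named.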

Additional observations from a re-analysis of the deposited data

How the results depend on the processing

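Alternatives chosen after seeing the data were centring and the filter on low values with the replicate block, leaving out a pair, and differences within pairs of genes. For each call that differed between settings the cause was not tested. The 370 genes called over the whole table were 2986 under the replicate block and 205 at pseudocount 0.1, both choices together giving 169. They were 3800 with a variance trend and the block, 2949 with centring and the block, 2798 with the filter and the block, and 4151, 395 and 1375 in the blocked fit without pairs 1, 2 and 3. Leaving out single libraries gave 31 to 1731 genes. The share of higher calls was 83.2% without the block and 49.9% with it, 92.7% with a pseudocount of 0.1 and 92.3% with that and the block.

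Of mitosis genes 0 were called lower and 0 higher without the block. With the replicate block 6 were lower and 1 higher, with a variance trend and the block 12 and 1, with centring and the block 5 and 1, with the filter and the block 6 and 1, and in the blocked fit 7 and 2 without pair 1 and 0 and 0 without pair 2 or pair 3. Centring and the block called 1356 of all 21769 genes lower and 1593 higher. The filter and the block called 1439 of 18506 genes lower and 1359 higher. In these 2 settings 8.62% and 10.3% of the 58 were called lower, and 1.72% higher in each. With a pseudocount of 0.1 and the block 0 and 0 were called. Leaving out single libraries gave 0 to 1 lower, the 1 being *top2a* without mutant replicate 1. The median log2 fold change of -0.15 ranged from -0.20 without mutant replicate 3 to -0.088 without sibling replicate 3, and was -0.098 without pair 2. It kept its sign in each setting run, and 38 to 45 of the 58 genes were negative. Centring on the library median left 42 negative, and moved the median of all genes from -0.01 to 0.01. Of 288 values of 16 named genes under the alternatives, 249 kept their direction and their side of the threshold, 37 newly passed it and 2 changed sign. Both were *plk1*, which ranged from -0.13 without mutant replicate 3 to 0.036 without mutant replicate 1. *cdc25d* had the lowest mean level of the 58, and none of the 58 lay under the value of 3 reads in any library. The count test listed among the alternatives was not run.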
